A study of Mus musculus with 2 samples.

Results

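The genes described here encode matricellular proteins, proteoglycans, the enzyme that makes hyaluronan, and agrin: Postn, Fn1, Sparc, Tnc, Vcan, Agrn, Has2, Dcn, Lum and Bgn. They were chosen by gene symbol, and are 10 of the 55536 mouse genes in the deposited gene tables. RNA came from heart tissue of male mice aged 4 days of the strain B6CASTF1/J, a first-generation hybrid of C57BL/6J and CAST/EiJ. No mouse carried a label for a treatment or an engineered allele, and the hearts form 1 group of 2 biological replicates, so no conditions are compared. The animals are numbered separately but share 1 donor record, so the spread between them may be technical.

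Matricellular proteins are secreted into the extracellular matrix, where they act on cells and on other matrix proteins more than as load-bearing fibres. Proteoglycans are core proteins that carry long sulfated sugar chains; the small leucine-rich ones bind collagen fibrils, and versican binds the unsulfated sugar polymer hyaluronan. In the newborn mouse heart this matrix is still being laid down by fibroblasts and other non-muscle cells, and agrin has been linked to the ability of the newborn mouse heart muscle to regenerate.

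Each library was a total RNA library with ribosomal RNA reduced, and mouse genes received 35744013 expected counts in replicate 2 and 31512596 expected counts in replicate 1. Levels are TPM, a transcript abundance summing to a fixed total per library, which are normalised for transcript length and so can be set side by side between genes. Errors are the SD over the 2 hearts. The tissue label was checked against markers: 12 of 12 cardiomyocyte markers had at least 1 TPM in both hearts, and they summed to 41023 TPM in replicate 2 and 44135 TPM in replicate 1. Each library was also quantified in a further deposited transcript table, here called the second quantification. Since 2 hearts of 1 group allow no p under 0.5 in a two-sided exact sign-flip test, no p is given.

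All 10 genes were detected, and 9 of 10 had at least 1 TPM in both hearts, a level reached by 23.8% of all mouse genes and 53.9% of protein-coding genes. Genes that overlap Fn1, Tnc, Vcan or Has2 on the opposite strand had at most 0.26 TPM in the gene tables. Together the 10 genes held 1543 TPM in replicate 2 and 1364 TPM in replicate 1, which is 0.156% and 0.138% of the TPM on mouse genes. The order by mean TPM was Sparc, Postn, Fn1, Dcn, Bgn, Agrn, Lum, Vcan, Tnc and Has2. Gene TPM covers all annotated transcripts of a gene, short and retained-intron forms included. Retained-intron forms held 34.2% of Agrn TPM in replicate 2 and 33.2% in replicate 1, and the place of Agrn above Lum depends on counting them. Fn1 also has such forms, described below. Of the 9 pairs of neighbours in this order, 8 had the same order in both hearts. Lum and Vcan were the exception, with a log2 ratio of Lum over Vcan of 0.19 in replicate 2 and -0.14 in replicate 1. The values of Dcn and Bgn overlapped between hearts. Within each heart Dcn was above Bgn, with a log2 ratio of 0.22 in replicate 2 and 0.10 in replicate 1. Neither pair is called different here. In the second quantification, 7 of the 9 pairs kept their order in both hearts. Dcn over Bgn turned to -0.05 in replicate 1 there, and Agrn over Lum to -0.20 in replicate 2.

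**Figure D1:**
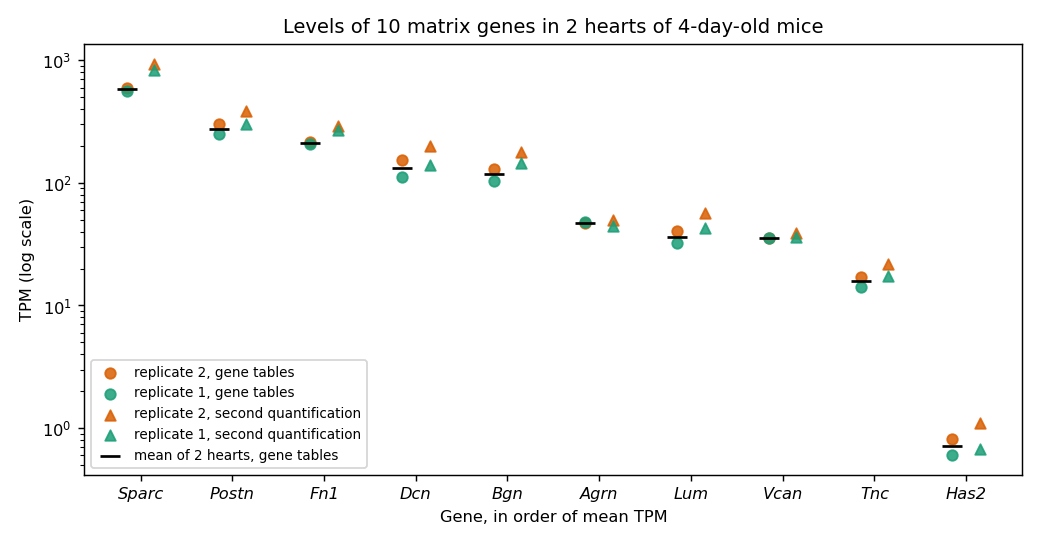
TPM on a log axis for the 10 genes in order of mean level. Circles are the deposited gene tables and triangles the second quantification, with replicate 2 in orange and replicate 1 in green, and bars are the mean of 2 hearts. Sparc stood at 579 TPM and Has2 at 0.71 TPM, and most triangles lie above their circles.

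Sparc encodes a secreted collagen- and calcium-binding glycoprotein that takes part in collagen deposition, and it lies at chr11:55394500-55423183 on the minus strand (build mm10, as for all coordinates). It had 600 TPM in replicate 2 and 557 TPM in replicate 1, a mean of 579 ± 30.3 TPM (SD, n = 2). This was the highest level of the 10 genes in both hearts and rank 69 among 22015 nuclear protein-coding genes. Sparc held 39.8% of the TPM of the 10 genes but 27% of their counts, because its transcripts are short. Fn1, with long transcripts, held 27.5% of their counts and 14.6% of their TPM. The related gene Sparcl1, which encodes a Sparc-like secreted protein, had 105 TPM in replicate 2 and 108 TPM in replicate 1.

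The 2 main coding transcripts of Sparc changed places between quantifications. Sparc-202, with 903 coding bases, held 72.1 ± 0.45% of the TPM of the pair in the first transcript tables and 35.7 ± 0.27% in the second. The other, with 906 coding bases, held 27.9% in the first and 64.3% in the second. Both hearts gave almost the same share within each quantification, so the SD between hearts does not cover this difference. No leading form is given for Sparc for that reason. For Postn, Tnc, Fn1, Bgn and Agrn, the leading transcript was the same in both hearts and both quantifications.

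Postn encodes periostin, a secreted protein of fibroblasts and valves that binds integrins and collagen (chr3:54361109-54391037, plus strand). Its level was 302 TPM in replicate 2 and 252 TPM in replicate 1, a mean of 277 ± 34.9 TPM and rank 249. The annotation holds 2 cassette exons in the part of Postn that encodes the carboxy-terminal end, which is known to be alternatively spliced. They are printed here because the main forms of Postn differ by them. The 81-nt exon lies at chr3:54380412-54380492 and the 84-nt exon at chr3:54385671-54385754. Like all cassette exons named here, both lie inside the coding sequence and keep its reading frame. Capitals mark the exon and the 9 lower-case bases on each side are the neighbouring exons of the spliced transcript.
Postn 81-nt exon: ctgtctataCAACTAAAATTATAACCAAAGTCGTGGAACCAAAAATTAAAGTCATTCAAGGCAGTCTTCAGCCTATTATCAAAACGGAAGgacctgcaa
Postn 84-nt exon: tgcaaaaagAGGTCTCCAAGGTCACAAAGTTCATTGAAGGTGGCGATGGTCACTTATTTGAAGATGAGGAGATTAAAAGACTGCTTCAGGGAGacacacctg

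The share of coding transcripts that hold the 81-nt exon was 31.7% in replicate 2 and 24.4% in replicate 1 (28.0 ± 5.15%). For the 84-nt exon it was 31.0% in replicate 2 and 28.1% in replicate 1 (29.6 ± 2.04%). The second quantification gave means of 28.4% and 31.1%, each within 1 SD of the first. Each exon, taken singly, was thus absent from most Postn transcripts in both hearts and both quantifications. The combinations were less certain. Forms with neither exon made up 40.7 ± 6.47% in the first tables and 55.1 ± 5.90% in the second. Forms with both were listed at 0 in the first tables and made up 14.5 ± 0.15% in the second, so whether the exons occur together in 1 transcript could not be read from these files.

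Tnc encodes tenascin-C, a large hexameric matrix protein that lowers cell adhesion (chr4:63959785-64047015, minus strand). It had 17.2 TPM in replicate 2 and 14.2 TPM in replicate 1, a mean of 15.7 ± 2.14 TPM and rank 4968. Tenascin-C is known for alternatively spliced fibronectin type III repeats. The annotation used here holds 1 such exon that coding transcripts of Tnc either hold or skip, 273 nt at chr4:63984460-63984732. It is printed because it separates both expressed forms, again with the exon in capitals.
Tnc 273-nt exon: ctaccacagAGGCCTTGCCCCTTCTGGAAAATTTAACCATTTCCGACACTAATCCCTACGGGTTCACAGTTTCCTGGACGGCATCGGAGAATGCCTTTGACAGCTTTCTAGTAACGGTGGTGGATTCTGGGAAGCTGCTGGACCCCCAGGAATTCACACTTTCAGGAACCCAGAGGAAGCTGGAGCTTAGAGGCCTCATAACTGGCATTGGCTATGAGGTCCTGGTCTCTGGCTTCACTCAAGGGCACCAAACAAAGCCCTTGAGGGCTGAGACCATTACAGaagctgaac

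Transcripts with this exon made up 30.9% of the coding forms of Tnc in replicate 2 and 30.5% in replicate 1 (30.7 ± 0.25%). The second quantification gave 29.4% in replicate 2 and 30.8% in replicate 1. The form without it, Tnc-204, led in both hearts with 11.8 TPM in replicate 2 and 9.58 TPM in replicate 1. The share with the exon thus differed little between hearts and between quantifications.

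Fn1 encodes fibronectin, the glycoprotein that cells assemble into fibrils through integrins and on which other matrix proteins are deposited (chr1:71585520-71653200, minus strand). It had 216 TPM in replicate 2 and 209 TPM in replicate 1, a mean of 212 ± 5.17 TPM and rank 325. Cellular fibronectin, made in tissues, can include the extra domains A and B, whereas the plasma form made by liver lacks them. The exon of extra domain A has 270 nt at chr1:71603660-71603929 and that of extra domain B has 273 nt at chr1:71613763-71614035. Both are printed because they define these forms of fibronectin. Capitals mark the exon.
Fn1 extra domain A exon: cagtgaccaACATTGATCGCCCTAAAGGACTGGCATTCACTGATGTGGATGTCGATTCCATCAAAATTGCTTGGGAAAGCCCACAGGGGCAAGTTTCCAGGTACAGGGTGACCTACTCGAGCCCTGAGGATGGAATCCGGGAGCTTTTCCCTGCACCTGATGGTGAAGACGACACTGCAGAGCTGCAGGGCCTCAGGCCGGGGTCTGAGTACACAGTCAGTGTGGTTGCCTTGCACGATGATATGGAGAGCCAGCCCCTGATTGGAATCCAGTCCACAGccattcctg
Fn1 extra domain B exon: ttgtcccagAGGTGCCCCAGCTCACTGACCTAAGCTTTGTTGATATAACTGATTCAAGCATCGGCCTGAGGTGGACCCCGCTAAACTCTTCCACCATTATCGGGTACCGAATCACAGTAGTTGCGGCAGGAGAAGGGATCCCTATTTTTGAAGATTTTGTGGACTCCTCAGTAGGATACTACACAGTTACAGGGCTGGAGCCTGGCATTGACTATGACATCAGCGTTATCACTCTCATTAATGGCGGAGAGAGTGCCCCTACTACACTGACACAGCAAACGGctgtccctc

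Extra domain A was held by 51.2% of the coding transcripts that span it in replicate 2 and by 49.4% in replicate 1 (50.3 ± 1.27%). Extra domain B was held by 46.9% in replicate 2 and 46.1% in replicate 1 (46.5 ± 0.63%). The second quantification gave means of 50.6% for domain A and 45.0% for domain B. About as many Fn1 transcripts held each domain as skipped it, in both hearts. Nearly all transcripts held both domains or neither: forms with both made up 46.5 ± 0.63%, forms with neither 49.7 ± 1.27% and forms with domain A alone 3.84 ± 0.64%. The annotation has 1 full-length transcript with domain B, and it also holds domain A, so a form with domain B alone could not be counted.

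Fibronectin transcripts also differ in the variable region, which carries binding sites for an integrin. The longest version, 360 nt, made up 73.5% of the full-length forms of Fn1 in replicate 2 and 67.7% in replicate 1 (70.6 ± 4.10%). Forms that lack the region made up 16.5 ± 1.42% in the first tables and 7.49 ± 0.34% in the second. The version of 285 nt made up 12.9 ± 2.68% in the first tables and 11.0 ± 1.04% in the second. The longest version led everywhere, and the share without the region differed more between quantifications than between hearts. A shorter annotated form of 1350 nt that spans none of these exons held 21.6 ± 2.61% of all Fn1 TPM in the first tables and 4.18 ± 1.43% in the second. Transcripts annotated as retaining an intron held 10.4% of Fn1 TPM in replicate 2 and 12.1% in replicate 1 of the first tables, and 22.9% in replicate 2 and 26.5% in replicate 1 of the second.

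Vcan encodes versican, the large chondroitin sulfate proteoglycan of the heart valves and of developing heart walls, which binds hyaluronan (chr13:89655312-89742509, minus strand). Its level was 35.4 TPM in each heart, a mean of 35.4 ± 0.064 TPM and rank 2195. Versican RNA is spliced into forms V0 to V3, which differ in a pair of large exons that encode the stretches to which the sugar chains attach, GAG alpha and GAG beta. GAG alpha has 2880 nt at chr13:89702918-89705797 and GAG beta 5217 nt at chr13:89688285-89693501. The junctions that define the forms are printed, with the last 15 bases of the upstream exon in lower case and the first 15 bases of the downstream exon in capitals.
V0 and V2, into GAG alpha: cctactgctttaaacCTAAACAGAATATAT
V0, GAG alpha to GAG beta: gagaaaacaagacagGTCGATTGAGTGATA
V1, skipping GAG alpha: cctactgctttaaacGTCGATTGAGTGATA
V3, skipping both: cctactgctttaaacGACCTGATCTCTGCA

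V0, which holds both exons, had 11.2 TPM in replicate 2 and 11.4 TPM in replicate 1, or 39.4 ± 4.11% of the full-length forms of Vcan. V1, which holds GAG beta alone, had 12 TPM in replicate 2 and 10.9 TPM in replicate 1, or 39.8 ± 0.94%. Their order differed between hearts, so V0 and V1 were not separated in the first tables, and V1 led in both hearts of the second with 51.5 ± 1.67%. V2, which holds GAG alpha alone and is known from the brain, stood at 0.07 TPM in replicate 2 and 0.09 TPM in replicate 1. V3, which holds neither, made up 20.5 ± 5.13% in the first tables and 4.30 ± 2.33% in the second. The share of V3 thus differed more between quantifications than between hearts. Counted by exon, GAG beta was held by 75.6% of forms in replicate 2 and 82.8% in replicate 1, and GAG alpha by 36.7% in replicate 2 and 42.6% in replicate 1. In the second quantification the means were 95.3% for GAG beta and 44.2% for GAG alpha.

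Has2 encodes the main hyaluronan synthase of the embryonic heart (chr15:56665627-56694539, minus strand). It had 0.82 TPM in replicate 2 and 0.60 TPM in replicate 1, a mean of 0.71 ± 0.16 TPM and rank 12490. These values rest on 98 counts in replicate 2, with an exact Poisson interval at the 95% level of 79.6 to 119, and on 60 counts in replicate 1, with an interval of 45.8 to 77.2. Reads may be PCR copies of 1 molecule, so such intervals, and the floor used for Kera, cover counting error only. Tnc, the next gene up, was 22.1-fold higher by mean TPM, the widest gap in the order. Of the other hyaluronan synthases, Has3 had 1.00 TPM in replicate 2 and 1.03 TPM in replicate 1, and Has1 had 0.23 TPM in replicate 2 and 0.07 TPM in replicate 1. All synthase RNAs were thus at or below about 1 TPM in these hearts.

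Decorin, lumican and biglycan are small leucine-rich proteoglycans that bind collagen and regulate fibril growth, and biglycan and decorin also bind growth factors. Dcn had 153 TPM in replicate 2 and 111 TPM in replicate 1, a mean of 132 ± 29.6 TPM and rank 507. Bgn, on the X chromosome at chrX:73483602-73495933 on the plus strand, had 131 TPM in replicate 2 and 104 TPM in replicate 1, a mean of 118 ± 19.2 TPM and rank 574. Lum had 40.5 TPM in replicate 2 and 32.1 TPM in replicate 1, a mean of 36.3 ± 5.93 TPM and rank 2121. All 3 were higher in replicate 2 than in replicate 1, and Dcn had the largest SD relative to its mean of the genes above 1 TPM.

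Dcn and Lum are neighbours on chromosome 10, at chr10:97479609-97518143 and chr10:97565128-97572703, on the plus strand and 47.0 kb apart. The next genes beyond Lum also encode small leucine-rich proteoglycans. Kera, which encodes keratocan of the cornea, had 0 counts in both hearts, where a floor of 3 counts is 0.0839 CPM (counts scaled to the library total) in replicate 2 and 0.0952 CPM in replicate 1. Epyc, which encodes epiphycan of cartilage, had 0.10 TPM in replicate 2 and 0.03 TPM in replicate 1. Within this cluster the levels thus ran from above 100 TPM for Dcn to none detected for Kera at this depth. Lum has 1 annotated transcript, as has Has2. The leading form of Bgn, with 1107 coding bases, held 79.9 ± 3.71% of its TPM in the first tables and 73.9 ± 1.02% in the second. Most of the rest was on a transcript of 548 nt in the first tables, at 17.7%, and on another of 828 nt in the second, at 24.3%, and neither is annotated as coding. Dcn has a pair of coding transcripts with the same coding exons and alternative first exons. One of them held 97.0 ± 3.65% of their TPM in the first tables, while the second split them evenly at 50%, so the first exon in use was not settled by these estimates.

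Agrn encodes agrin, a heparan sulfate proteoglycan of basement membranes that binds dystroglycan, and in the nerve-made form clusters acetylcholine receptors at the neuromuscular junction (chr4:156165290-156197488, minus strand). Its level was 47.0 TPM in replicate 2 and 47.6 TPM in replicate 1, a mean of 47.3 ± 0.40 TPM and rank 1563. The forms that act on the neuromuscular junction include short exons near the end of the coding sequence, which are printed here, in capitals, because their presence tells these forms apart. They lie at chr4:156169546-156169557, chr4:156168546-156168569 and chr4:156167777-156167809.
Agrn 12-nt exon: gaatctccgAAATCCCGCAAGgtcccgcac
Agrn 24-nt exon: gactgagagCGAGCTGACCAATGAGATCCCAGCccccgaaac
Agrn 33-nt exon: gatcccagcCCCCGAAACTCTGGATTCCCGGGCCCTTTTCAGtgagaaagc

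All 3 exons lie on 1 coding transcript, Agrn-203, which made up 6.52% of the coding forms in replicate 2 and 6.71% in replicate 1 (6.61 ± 0.14%). The second quantification gave 6.49% in replicate 2 and 7.09% in replicate 1. No other annotated coding transcript holds any of these exons. Their shares are therefore the same by construction, and coding forms with only some of them could not be counted. Among the annotated coding forms, most agrin RNA was assigned to those without these exons, in both hearts and both quantifications. When transcripts annotated as retaining an intron were counted too, a choice made after the data were seen, the share with the 24-nt exon came to 36.5%. That share turns on Agrn-205, a retained-intron form that held 30.0 ± 1.91% of Agrn TPM in the first tables and 3.42 ± 1.37% in the second. The level of that form therefore could not be told from these estimates.

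Agrin also has alternative first exons, of which the upstream one is used by Agrn-206. Agrn-206 made up 83.7% of the coding forms of Agrn in replicate 2 and 88.3% in replicate 1 (86.0 ± 3.29%). In the second quantification its share was 55.9 ± 1.05%, and forms from the internal first exon made up 44.1%. Agrn-206 led in both, by margins that differed between quantifications.

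**Figure D2:**
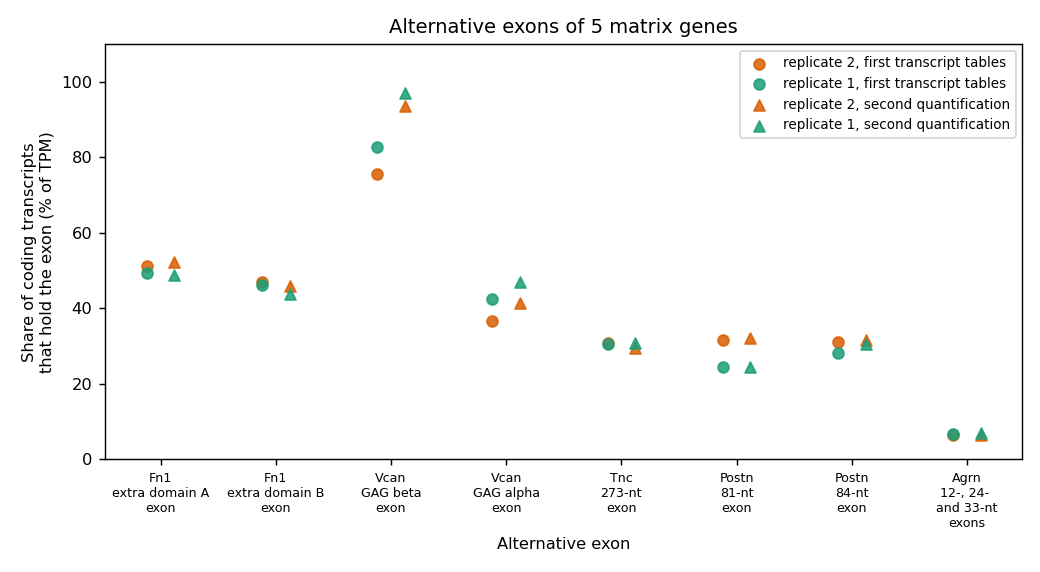
Share of coding transcripts, in percent of their TPM, that hold each alternative exon of Fn1, Vcan, Tnc, Postn and Agrn. Circles are the first transcript tables and triangles the second quantification, with replicate 2 in orange and replicate 1 in green. The exons of Fn1, Tnc and Agrn lie close together in all 4 estimates, while GAG beta of Vcan lies at 79.2% in the first tables and 95.3% in the second.

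Between the hearts, all 10 genes were higher in replicate 2 on TMM-scaled counts, where 49.6% of the 16271 genes past the filter were higher. A difference was counted past a log2 ratio of 0.32, a ratio of 5 to 4. Dcn, Has2, Lum, Tnc, Postn and Bgn were higher by more than that, 6 of 10, beside 12.2% of all genes tested. None of the 10 genes was lower by that much, beside 18.2%. Of 4847 well-counted protein-coding genes, those averaging 1000 counts or more, 62.3% were higher, 8.87% by more than 0.32, and 4.77% were lower by more than that. The median log2 ratio of replicate 2 over replicate 1 was 0.40 over the 10 genes and 0.02 over protein-coding genes. These are ratios of 1 library to 1, with no replicate check. The common biological coefficient of variation, 1 value over all genes tested from these same 2 libraries, was 15.2%. It corresponds to an SD of 0.31 for the log2 ratio of a gene. Smaller shares of well-counted genes than of all genes passed 0.32 either way, so this SD is wide for well-counted genes.

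Of the 9 genes above 1 TPM, Dcn and Lum, both small leucine-rich proteoglycans, had the largest ratios. Dcn had a log2 ratio of 0.58, from 7317 counts in replicate 2 and 4523 counts in replicate 1. Lum had a log2 ratio of 0.46, from 2742 counts in replicate 2 and 1833 counts in replicate 1. Bgn had a log2 ratio of 0.38, from 7244 counts in replicate 2 and 5139 counts in replicate 1. Of the matricellular genes, Tnc and Postn had log2 ratios of 0.42 and 0.41, and Sparc had 0.24. The smallest ratios were those of Vcan at 0.18, Fn1 at 0.14 and Agrn at 0.11. Has2 had 0.58, from 98 counts in replicate 2 and 60 counts in replicate 1. The ratios of Sparc, Vcan, Fn1 and Agrn, 4 of 10, were under the SD of 0.31 over all genes, which is wide for well-counted genes such as these.

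The count of 6 depended on the scale. On TPM with a pseudocount of 0.1, the median over all genes shifted to -0.13, and 4 genes exceeded 0.32; there Agrn was at -0.02 and Vcan at 0.00, so neither was higher in replicate 2. Relative to that median, all 10 genes were above it and 6 by more than 0.32. With scaling to the spike-ins the median over all genes shifted to 0.04, and 6 genes exceeded 0.32.

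**Figure D3:**
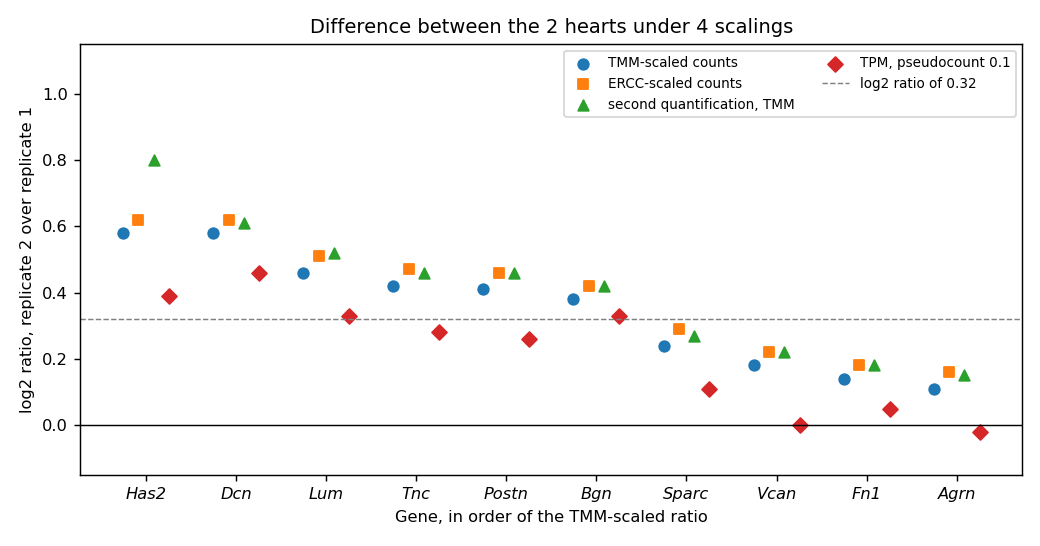
Log2 ratio of replicate 2 over replicate 1 for the 10 genes under 4 scalings; the dashed line is at 0.32 and the solid line no difference. On TMM-scaled counts all lie above 0, from 0.11 for Agrn to 0.58 for Has2 and Dcn, and on TPM Agrn is at -0.02.

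Marker genes of the cell types in the heart were set side by side in the same way. Beside their counts, 49.6% of all genes past the filter and 62.3% of well-counted protein-coding genes were higher in replicate 2. Fibroblast markers, which include the fibrillar collagen genes, summed to 1642 TPM in replicate 2 and 1185 TPM in replicate 1; 11 of 12 were expressed, Lamp5 had 0 counts, and 10 of 11 past the filter were higher in replicate 2, with a median log2 ratio of 0.45. Epicardial markers summed to 89.1 TPM in replicate 2 and 79.0 TPM in replicate 1, and 10 of 11 were higher. Valve and cartilage markers summed to 28.3 TPM in replicate 2 and 22.0 TPM in replicate 1, and 8 of 8 past the filter were higher. Of these markers, 5 of 12 were expressed, with a list median of 0.7 TPM, so several rest on few counts. Endothelial markers summed to 939 TPM in replicate 2 and 1039 TPM in replicate 1, but on TMM-scaled counts 7 of 12 were higher in replicate 2, with a median log2 ratio of 0.04. Mural markers summed to 1342 TPM in replicate 2 and 1086 TPM in replicate 1, and 8 of 12 were higher, with a median of 0.10. Within the mural list, Acta2 had 631 TPM in replicate 2 and 341 TPM in replicate 1, a wider gap than that of the sum. Des, the next highest, went the other way, with 314 TPM in replicate 2 and 358 TPM in replicate 1. Macrophage markers summed to 49.8 TPM in replicate 2 and 51.9 TPM in replicate 1, and 7 of 12 were higher, with a median of 0.19. Schwann cell markers summed to 10.6 TPM in replicate 2 and 9.82 TPM in replicate 1, and 4 of 7 were higher, with a median of 0.29. The endothelial, mural, macrophage and Schwann cell counts were thus near the shares of all genes or of well-counted genes. Cardiomyocyte markers summed to 41023 TPM in replicate 2 and 44135 TPM in replicate 1, and 5 of 12 were higher, with a median of -0.04. Red cell markers summed to 5293 TPM in replicate 2 and 1409 TPM in replicate 1, the widest gap of these lists. Their part in the differences of the 10 genes was not tested. In RNA of bulk heart tissue, more cells of a type and more RNA per cell cannot be told apart.

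The quantifications gave the 10 genes different absolute levels. In both hearts, 9 of the 10 were lower in the gene tables than in the second quantification, as were 89.4% of the 15573 genes compared, and the median ratio of first over second was 0.722 in replicate 2 and 0.739 in replicate 1. None was lower by over 1.5-fold in both hearts, a difference that 26.2% of all genes showed, though Sparc came nearest at 0.638 in replicate 2 and 0.669 in replicate 1. Relative to the median ratio, none differed by over 1.5-fold either way in both hearts, beside 14% of all genes. Agrn was the exception in direction, with 0.948 in replicate 2 and 1.07 in replicate 1. Vcan had 0.911 in replicate 2 and 0.972 in replicate 1. Against the shift of all genes, the levels of Agrn and Vcan were thus high and that of Sparc low in the gene tables.

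The partners of these proteins were described from 7 lists of genes, of which 73 of 100 had at least 1 TPM in both hearts. This level was reached by 53.9% of protein-coding genes, the share to set beside each count of expressed genes below. Of 19 other matricellular genes, 13 were expressed, with a median of 10.3 TPM, beside 82.5 TPM for the 10 genes described here. After Sparcl1, the leading ones were Ccn2, which encodes connective tissue growth factor, at 66.2 ± 1.29 TPM, and the thrombospondins Thbs2 at 26.4 ± 6.63 TPM and Thbs1 at 22.6 ± 5.46 TPM. Of 13 other small leucine-rich proteoglycans, 6 were expressed, somewhat under the 53.9% of protein-coding genes. Aspn, which encodes asporin, led with 42.5 TPM in replicate 2 and 34.1 TPM in replicate 1, close to the level of Lum, and Ogn, which encodes osteoglycin, had 31.1 TPM in replicate 2 and 26.4 TPM in replicate 1. Dcn and Bgn were above all 13 in both hearts.

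Of 19 genes for hyaluronan and its binding proteins, 10 were expressed, near the 53.9% of protein-coding genes, and their median was 1.02 TPM. The leading ones were the scavenger receptor Stab1 at 31.7 ± 0.96 TPM, Hyal2 at 22.2 ± 1.98 TPM and Cemip2 at 20.5 ± 0.69 TPM, both linked to hyaluronan breakdown, and Ugdh, which encodes the enzyme for a sugar precursor of hyaluronan, at 16.1 ± 4.07 TPM. Hapln1, which encodes the link protein that ties versican to hyaluronan and is the neighbour of Vcan at 43.7 kb, had 0.34 TPM in replicate 2 and 0.30 TPM in replicate 1. Vcan RNA was thus well above that of its link protein gene in both hearts. Of 8 proteases that cleave versican, 6 were expressed, led by Mmp2 at 57.6 ± 9.07 TPM, Adamts1 at 24.1 ± 3.71 TPM and Adamts9 at 21.3 ± 1.13 TPM.

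Of the agrin receptors, Dag1, which encodes dystroglycan, had 137 TPM in replicate 2 and 126 TPM in replicate 1. Lrp4, the agrin receptor of muscle, had 5.42 TPM in replicate 2 and 6.50 TPM in replicate 1. Musk, the kinase that acts with Lrp4 at the neuromuscular junction, had 0.16 TPM in replicate 2 and 0.06 TPM in replicate 1. Dystroglycan was thus the agrin receptor gene with the highest level in both hearts, while Musk was near the limit of detection. All 13 genes in the list of receptors of fibronectin and matricellular proteins were expressed. This list also holds Tgfb1, which encodes a secreted growth factor and not a receptor, at 18.8 TPM. The leading gene was Cd36, a thrombospondin receptor, at 462 ± 0.071 TPM. Next were the integrin subunit genes Itgb1 at 265 ± 24.4 TPM, Itga5 at 55.0 ± 6.40 TPM and Itga9 at 40.6 ± 11.2 TPM. Itga5 and Itgb1 together encode the main fibronectin receptor, and Itga9 pairs with Itgb1 to bind tenascin-C. Of 25 genes for glycosaminoglycan chain synthesis, 23 were expressed, led by Ndst1 at 46.6 ± 2.43 TPM and Extl3 at 37.5 ± 3.39 TPM, which act on heparan sulfate chains.

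**Figure D4:**
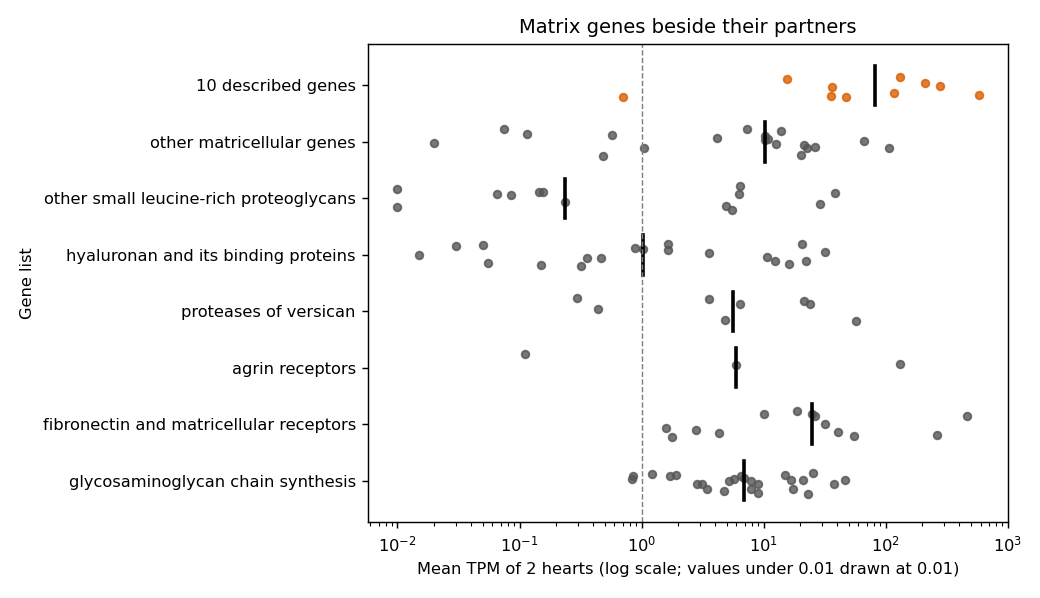
Mean TPM over 2 hearts on a log axis for each gene of the 10 described here, in orange, and of 7 partner lists, in grey; bars are list medians and the dashed line is 1 TPM. The 10 genes have a median of 82.5 TPM and the hyaluronan list a median of 1.02 TPM.

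Promoters of 6 of the 10 genes were in the RefSeq table for GRCm38.p6. The windows of 250 bases before each start were searched on both strands for the TATA box with the letters TATAAA, the CCAAT box with the letters CCAAT, the GC box with the letters GGGCGG, the AP-1 site with the letters TGANTCA and the TEAD site with the letters GGAATG. None of these contains another. TATAAA was found for Postn and Tnc and in 12.4% of all 32851 promoters, CCAAT for Vcan and in 33.8%, and GGGCGG for Agrn, Bgn, Tnc and Vcan and in 32.7%. A gene is named for a match at any of its starts, while the percentages are per promoter, so the units differ. Agrn, Postn and Tnc each have more than 1 start. Counted by promoter, the matches were 3 for TATAAA, 1 for CCAAT and 6 for GGGCGG. The TATAAA match of Tnc lies 205 bases before 1 start and 126 bases before the other. The windows of these starts overlap, so this is the same site counted for each. The AP-1 letters were found for none of the 6 and in 6.75% of all promoters, and the TEAD letters for none of the 6 and in 12.6%. The 100 bases before 1 start of Postn, chr3:54361007-54361106 on the plus strand, are printed because Postn is the highest of the genes with a TATAAA match; capitals mark the match, whose first base lies 26 bases before the start.
Postn promoter: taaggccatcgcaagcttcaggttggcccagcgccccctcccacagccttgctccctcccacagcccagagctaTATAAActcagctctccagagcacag
These matches are a description of the letters in the windows and were not tied to the levels above.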

How the data were processed

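Total RNA of 2 hearts, 1 group, was analysed. For each library the authors deposited 1 gene table and 2 transcript tables. Per the file headers, the gene table and the first transcript table have RSEM-style columns of expected counts and of TPM, and the second transcript table has kallisto-style columns of estimated counts and of TPM. The build was mm10 and the annotation GENCODE M21, per the deposited notes. Which tools, versions and settings were used was not given in the sources used here. Deposited TPM covers all rows, spike-ins included, so short RNAs and spike-ins affect its scale.

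Of 55536 mouse genes, all were matched to the annotation. Rows that name no gene held 1.11e-05% of counts in replicate 2 and 6.31e-06% in replicate 1 and were left out of library sizes, as were the 96 spike-ins. Replicate 2 had 35939759 expected counts in total and replicate 1 had 31698880. Expected counts were rounded, filtered with filterByExpr and scaled by TMM (R 4.3.3, edgeR 4.0.16), and log values used a prior count of 2. DESeq2 1.42.0 size factors, spike-in scaling, no filter, the second quantification and TPM ratios were alternatives. Simulated counts with known changes were used to test this step. Other steps used Python 3.11.15, pandas 2.3.3, NumPy 2.4.6 and matplotlib 3.10.9. Second-quantification gene values are sums over transcripts.

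Exon shares are TPM on coding transcripts that hold an exon over TPM on those that hold or skip it. Exon sequences are from GENCODE M21 transcripts and promoters from RefSeq. Named genes were the 10 genes, up to 4 leading genes of each list and genes at 0, and not all are printed. The genes, the lists and the rule were chosen with earlier results of these data known, and 205 of 205 listed genes were matched. Exon combinations, Agrn first exons, the Fn1 variable region, counts with retained-intron forms, the background of well-counted genes and ratios relative to the median were added after the data were seen.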

Additional observations from a re-analysis of the deposited data

How the results depend on the processing

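The median level of the 10 genes, 82.5 TPM, was 105 TPM in the second quantification and 187 TPM when TPM was rescaled over nuclear protein-coding genes, and 75.8 to 89.1 TPM with either heart left out. The number of genes past a log2 ratio of 0.32 (replicate 2 over replicate 1) was 6 under TMM, DESeq2 size factors, spike-in scaling, no filter and the second quantification, 4 on TPM with a pseudocount of 0.1 and 3 with a pseudocount of 1. In the second quantification the share with extra domain B was 45.0%, with GAG beta 95.3%, with GAG alpha 44.2%, with the Tnc exon 30.1% and with each Agrn exon 6.79%. With all annotated forms counted, chosen after seeing the data, extra domain A was at 48.7%, extra domain B at 45.5%, and the 33-, 24- and 12-nt exons of Agrn at 4.50%, 36.5% and 11.8%. The causes were not tested. On TPM with either pseudocount, Agrn turned to -0.02. In the second quantification, Dcn over Bgn turned to -0.05 in replicate 1 and Agrn over Lum to -0.20 in replicate 2. Of the partner genes, 73 of 100 were expressed, 76 in the second quantification and 54 at a minimum of 5 TPM. No paired analysis was possible because the 2 hearts form 1 group with no contrast. Has2, with 98 counts in replicate 2 and 60 counts in replicate 1, and genes near 0 were limited by depth.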

Other observations

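The differences between the hearts were not particular to the 10 genes. Of the other small leucine-rich proteoglycans, 6 of 6 past the filter were higher in replicate 2 on TMM-scaled counts, with a median log2 ratio of 0.32, beside 49.6% of all genes tested. Aspn had 2706 counts in replicate 2 and 1834 counts in replicate 1, and Fmod, which encodes fibromodulin, had 682 counts in replicate 2 and 368 counts in replicate 1. Of the other matricellular genes, 13 of 16 past the filter were higher, with a median of 0.25. Thbs1 had 26.5 TPM in replicate 2 and 18.8 TPM in replicate 1, and Thbs2 had 31.1 TPM in replicate 2 and 21.7 TPM in replicate 1, while Sparcl1 differed by a log2 ratio of 0.09. Genes for glycosaminoglycan chain synthesis were higher in 18 of 25, with a median of 0.13. In the list of receptors of fibronectin and matricellular proteins, 12 of 13 genes were higher, with a median of 0.17. The exception was the growth factor gene Tgfb1, at -0.03. Hyaluronan genes were higher in 11 of 15, with a median of 0.19, and versican proteases in 5 of 8, with a median of 0.27. Beside these, 49.6% of all genes tested and 62.3% of well-counted protein-coding genes were higher. The lists for glycosaminoglycan chain synthesis, hyaluronan and versican proteases were at or not far above the latter share. The receptor list and the lists of other small leucine-rich proteoglycans and other matricellular genes were further above it. With 1 library on each side, these counts describe the pair of libraries.

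Of the fibroblast markers past the filter, 10 of 11 were higher in replicate 2, with a median log2 ratio of 0.45, and the ratios of single genes varied. The collagen genes Col3a1 and Col1a1 and the matrix gene Dpt had log2 ratios of 0.64, 0.50 and 0.79. Tcf21, which encodes a transcription factor of cardiac fibroblasts, had 18.7 TPM in replicate 2 and 21.6 TPM in replicate 1, a log2 ratio of -0.09. Pdgfra, a receptor gene of the same cells, had 16.4 TPM in replicate 2 and 11.8 TPM in replicate 1, a log2 ratio of 0.44. The other markers had log2 ratios of 0.66 for Fbln1, 0.57 for Col1a2, 0.45 for Gsn, 0.33 for Mfap5, 0.18 for Thy1 and 0.03 for Ddr2. Tcf21 and Pdgfra were chosen after their values were seen. With 1 library on each side, and no SD for these markers alone, whether they differed from each other could not be told.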
